A study of Rattus norvegicus with 9 samples.

Results

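SLC25A4 encodes the ADP/ATP carrier of the inner mitochondrial membrane, and its expression was described in cardiac fibroblasts (CFs) from neonatal rats, the matrix-producing cells of the heart, used at a low passage. It is 1 of the 22512 genes in the deposited expression table. It was chosen by its FPKM values in these same libraries, so its levels are given as a description and were not tested. Total RNA was sequenced from 9 libraries in 3 groups of 3. The blank group received no treatment. The AngII group received angiotensin II (AngII), the peptide hormone used to drive fibroblasts towards myofibroblasts, at 0.1 µM for 72 h. The vericiguat + AngII treatment group received vericiguat, a stimulator of soluble guanylate cyclase, at 1.0 µM for 24 h and then AngII at 0.1 µM for 72 h, as the labels give it. The study's migration assay used the opposite order, with vericiguat given for 24 h after 24 h of AngII, and whether the sequenced cells followed the labels could not be checked here. The comparisons ask how expression changed with AngII and with the addition of vericiguat. The sources do not say whether the libraries of a group came from separate cultures or animals, so the p-values measure only the spread between these libraries, which may be technical.

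The ADP/ATP carrier exchanges cytosolic ADP for ATP made in the mitochondrial matrix. ATP synthase, whose subunits carry the ATP5 symbols, makes that ATP from ADP and phosphate with the proton gradient built by the respiratory chain. SLC25A4, also called ANT1, is the carrier isoform that predominates in heart and skeletal muscle, while its close relative SLC25A5 is known from many proliferating cells.

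The rat promoter of the gene is shown because it lies just before the annotated start of the transcript in the rat. The 250 bases before the RefSeq start of Slc25a4 lie on the plus strand at chr16:52805271-52805520 of the GRCr8 assembly and read, 5′ to 3′, with the TATAAG and both CCAAT motifs in capitals:
Slc25a4: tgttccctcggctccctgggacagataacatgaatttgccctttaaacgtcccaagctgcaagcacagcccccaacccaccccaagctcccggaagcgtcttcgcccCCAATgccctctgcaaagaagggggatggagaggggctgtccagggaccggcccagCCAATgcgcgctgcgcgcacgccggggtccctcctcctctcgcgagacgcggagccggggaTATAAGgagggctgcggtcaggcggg
The TATAAG motif stood 26 to 21 bases before the start, and the CCAAT motifs stood 143 to 139 and 87 to 83 bases before it. On either strand, TATAAG or TATAAA was held by 18.0% of the 33469 rat promoter windows and CCAAT by 34.0%. Among the 14 ATP5 promoters that could be matched, 1 held TATAAG or TATAAA and 5 held CCAAT. The GC box motif GGGCGG was not in the Slc25a4 window, and it was held by 30.5% of all windows and by 6 of the 14 ATP5 windows. A motif match describes these letters only.

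The deposited values are FPKM, fragments scaled to the length of the transcript and to the mapped fragments of the library. The libraries of the 3 groups differed in composition. A set of 13 entries with KEF51 names took 97.6% to 97.9% of the summed FPKM in the blank libraries, 96.7% to 97.5% in AngII libraries and 45.3% to 52.3% in vericiguat + AngII libraries. Genes with FPKM of at least 1 numbered 260 to 1542 in blank libraries, 1155 to 1517 in AngII libraries and 11280 to 11565 in treated libraries. Values are therefore also given after median-ratio scaling, which divides each library by the median ratio of its genes to their geometric mean over libraries. The size factors were 0.463, 0.0792 and 0.263 in blank libraries, 0.297, 0.448 and 0.334 in AngII libraries and 15.8, 14.2 and 13.9 in treated libraries. The submitters' processing notes name OryCun2.0, a rabbit assembly, while the samples are labelled as rat, and its effect on the level of SLC25A4 was not tested.

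The third blank library stood apart in another way. For 176 of the 180 genes with a mean blank FPKM of at least 5 (97.8%), its value lay between those of the first and the second blank library, and its median distance from their midpoint was 7.26%. The first and the second blank library each lay between the other two for 1.11% of these genes, and the AngII and treated libraries did so within their groups for 21.8% to 43.5% of genes. The cause was not tested, and results that rest on the blank group are given with and without the third library.

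**Figure D1:**
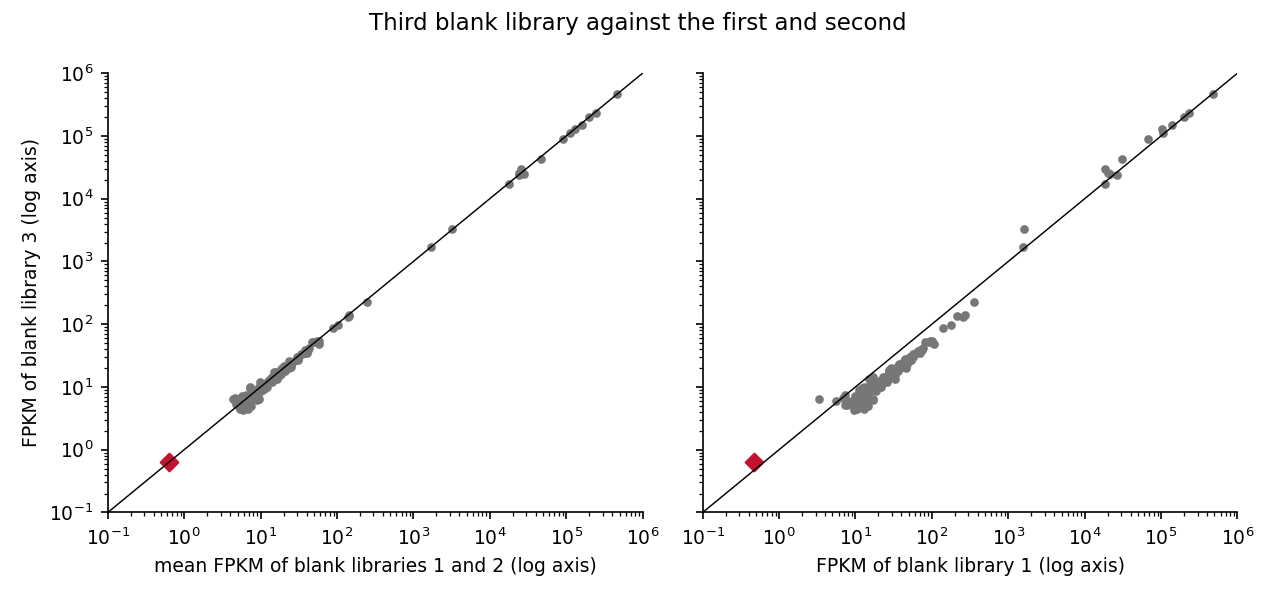
FPKM of the third blank library (vertical axes) against the mean of the first and second (left) and against the first alone (right), on log axes, with 1 grey point for each gene with a mean blank FPKM of at least 5, SLC25A4 as a red diamond and a line of equal values. The third library lies near the line on the left, with a median distance of 7.26% from the midpoint, and it lies between the first and the second library for 176 of 180 genes.

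SLC25A4 was low in the blank libraries and was among the most abundant transcripts of the treated libraries. Its FPKM was 0.470, 0.813 and 0.641 in blank libraries, with a mean of 0.641 ± 0.172 (SD, n = 3). It was 27.8, 23.3 and 34.7 in AngII libraries (28.6 ± 5.72, SD, n = 3) and 1276, 1108 and 613 in vericiguat + AngII libraries (999 ± 344, SD, n = 3). The 3 groups did not overlap on this scale, and the third treated library was the lowest of its group. The mean FPKM of the AngII group was 44.6-fold that of the blank group, and the mean of the treated group was 34.9-fold that of the AngII group. On the log2(FPKM + 1) scale the difference between AngII and blank was 4.16, rank 4 among the 10908 genes that passed the filter on low values, where the median gene differed by 0.06. Without the third blank library the difference was also 4.16. With all libraries, the difference between the treated and the AngII group was 5.03, rank 450, where the median gene differed by 2.76. Of the 10908 genes, 9.97% passed the filter on the 6 blank and AngII libraries alone. Most were thus low in both of these groups, which bears on each rank and median between AngII and blank.

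The blank values rested on few fragments. For a given gene, low FPKM values are whole multiples of the value of a single fragment once the depth of each library is allowed for. The 3 blank values of SLC25A4 corresponded to 2, 4 and 3 such steps, within 0.03 of a whole number. If a step is 1 fragment, the 9 fragments in all have an exact Poisson 95% interval of 4.12 to 17.1, which covers counting error only. The interval takes the 3 blank libraries as separate counts, although the third lay between the others for most genes. If the third is not a separate sample, the interval is too narrow. The SDs of the blank group rest on the same assumption. The relative depth estimated from the steps was 0.691 to 1.16 times that of the first blank library.

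After median-ratio scaling, SLC25A4 was again higher in AngII than in blank, while the treated and AngII groups overlapped. Scaled FPKM was 1.02, 10.3 and 2.44 in blank libraries (4.57 ± 4.98, SD, n = 3), and the second blank library, with the smallest size factor, was the highest of them. It was 93.8, 52.0 and 104 in AngII libraries (83.2 ± 27.4, SD, n = 3) and 80.9, 78.1 and 44.1 in treated libraries (67.7 ± 20.4, SD, n = 3). All 6 libraries that received AngII lay above all 3 blank libraries. The mean was 18.2-fold higher in AngII than in blank, with a log2(scaled FPKM + 1) difference of 4.24 and rank 5 of 10908. The treated mean was 0.814 times the AngII mean, a log2 difference of −0.28 with rank 9036, and 14.8 times the blank mean, a log2 difference of 3.96 with rank 7.

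When the KEF51 entries were left out and each library was brought to the same sum, the 3 groups were again separate. At a sum of 1000000, its level was 15.2, 22.4 and 17.0 in blank libraries, 608, 405 and 643 in AngII libraries and 2993, 2583 and 1414 in treated libraries. The treated mean was then 4.22-fold above the AngII mean, but with a log2 difference of 2.03 it ranked 6525 of 10908, where the median gene differed by 2.26. Most of the remaining sum in blank libraries came from another entry, ADORA1-2, with FPKM of 18516, 32625 and 29989 beside sums of 30992 to 37728. The blank levels on this scale, and ratios to them, thus depend on that entry. On these 3 scales the AngII libraries lay above the blank libraries, whereas the position of the treated libraries relative to AngII changed with the scale. In order of abundance without the KEF51 entries, SLC25A4 stood at 2893, 298 and 1329 of 22499 in blank libraries, 61, 56 and 52 in AngII libraries and 25, 35 and 74 in treated libraries. In these bulk libraries, fewer cells of a type and less RNA per cell cannot be told apart.

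**Figure D2:**
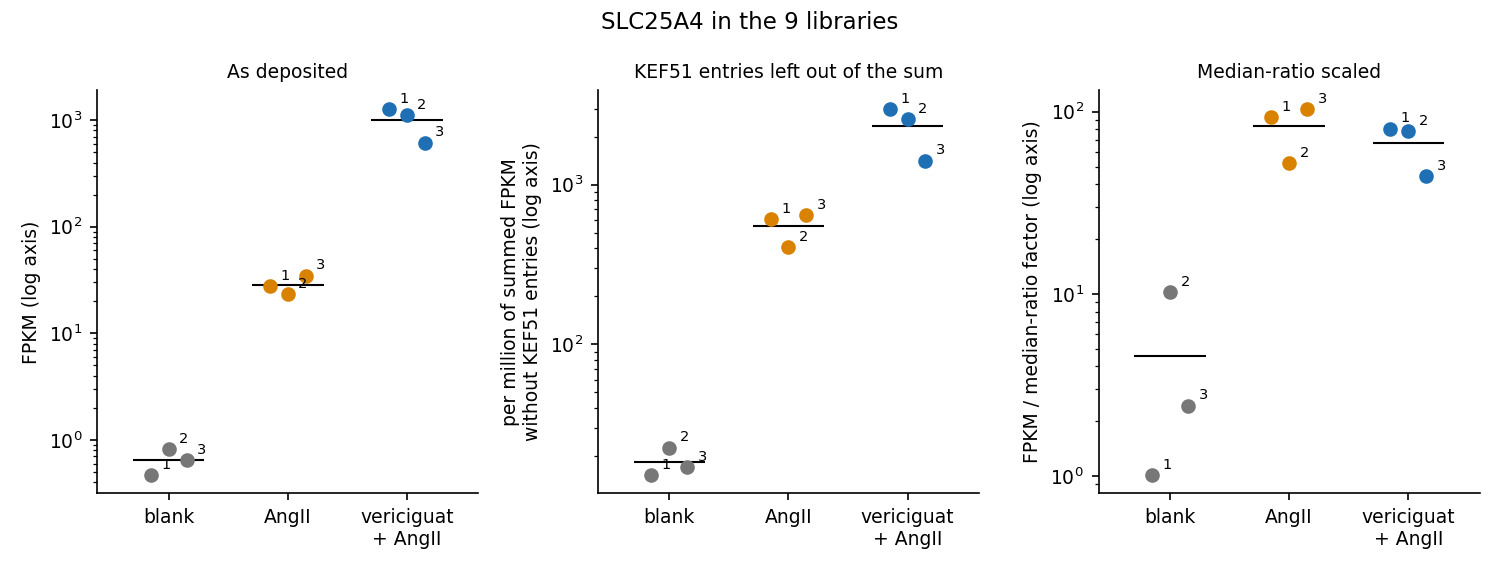
SLC25A4 in each of the 9 libraries on 3 scales (from left to right: deposited FPKM, level relative to summed FPKM without the KEF51 entries, and median-ratio scaled FPKM), on log axes, with 1 point per library marked with its replicate number and a line at each group mean. The AngII libraries lie above the blank libraries on each scale, and the treated libraries lie above the AngII libraries on the deposited scale and on the scale without the KEF51 entries and overlap with them after median-ratio scaling.

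Few other carriers of the SLC25 family were named in the table. Of the 49 rat protein-coding SLC25A symbols, 2 were matched, SLC25A4 and SLC25A24. A further 20346 entries carry LOC numbers that no symbol was matched to. The other adenine nucleotide carriers were not analysed here, and their sequences were not compared with that of SLC25A4. How any reads shared between these carriers were counted is not given in the sources used here, so the level of SLC25A4 is uncertain to that extent. SLC25A24, a calcium-regulated carrier that exchanges ATP-magnesium for phosphate, had FPKM of 0, 0.026 and 0.028 in blank libraries, 0.141, 0 and 0.129 in AngII libraries and 4.64, 4.38 and 5.32 in treated libraries. It was thus near 0 in all 6 libraries without vericiguat, and it passed the filter through the treated libraries. On the median-ratio scale its log2 differences were 0.16 for AngII against blank and 0.06 for treated against AngII, and neither was called. Its scaled FPKM was at most 0.475 in any library, so with 1 added before the log2 a difference of 1 could not be reached. The lack of a call on that scale was thus fixed in advance.

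The ATP synthase genes were the closest context, since they make the ATP that the carrier exports. All 16 listed ATP5 genes passed the filter, 14 of them also on the 6 blank and AngII libraries alone, while ATP5F1B and ATP5MF passed through the treated libraries. Of all 10908 tested genes, 1087 (9.97%) passed on those 6 libraries alone. In the following, called genes differ by at least 1 on the log2 scale, in either direction, and have a p below 0.05 in limma on log2(FPKM + 1) after Benjamini-Hochberg adjustment over all 10908 genes tested. Between AngII and blank, 5 of the 16 were called higher and none lower, while 1.44% of all tested genes were called higher and 0.11% lower (157 higher and 12 lower, or 563 higher and 352 lower after median-ratio scaling). The spread behind these calls was pooled over all 9 libraries, including the treated ones. When limma was fitted to the blank and AngII libraries alone on the deposited FPKM, no gene was called. Leaving out the first or the second treated library left none of the 16 called, and leaving out the third left 1. A block for the replicate number also left none. The median log2 difference was 1.86 for the 16 and 0.06 for all genes. The AngII and blank libraries did not overlap for 12 of the 16, in the direction of higher AngII, and for 19.8% of all tested genes.

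The called genes included all 3 that encode the membrane-embedded c subunit, the ring through which protons turn the enzyme. ATP5MC2 had FPKM of 0.149, 0.257 and 0.406 in blank libraries, 7.22, 7.11 and 7.53 in AngII libraries and 132, 129 and 66.3 in treated libraries. Its AngII libraries were close together and far above the blank libraries, with a log2 difference of 2.71 (SE 0.351, limma adjusted p = 0.0153). ATP5MC1 had FPKM of 1.38, 1.98 and 1.25 in blank libraries, 21.2, 13.1 and 33.9 in AngII libraries and 665, 685 and 453 in treated libraries. It rose with AngII by 3.14 on the log2 scale (SE 0.546, limma adjusted p = 0.0262). ATP5MC3 rose by 2.48 (SE 0.523, limma adjusted p = 0.0415), from 1.76, 0 and 0.123 to 9.82, 3.71 and 9.48 FPKM, with 1 blank library well above the other two.

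The other called genes were ATP5MG, a small subunit of the membrane sector, and ATP5PO, part of the stalk that holds the catalytic head. ATP5MG had FPKM of 0, 0.363 and 0.191 in blank libraries and 8.48, 3.34 and 13.6 in AngII libraries, a log2 difference of 2.84 (SE 0.469, limma adjusted p = 0.0223). ATP5PO had FPKM of 2.73, 1.03 and 1.71 in blank libraries and 17.1, 18.3 and 27.8 in AngII libraries, a log2 difference of 2.98 (SE 0.552, limma adjusted p = 0.0308). The AngII and blank libraries overlapped for neither gene. ATP5F1B, the catalytic β subunit, was listed at 0 in all blank libraries and at 0, 0.088 and 0.086 in AngII libraries, and it was 15.99, 13.06 and 8.33 in treated libraries. ATP5IF1, the inhibitor of ATP synthase, was among the most abundant of the 16 in blank libraries with 29.5, 9.11 and 20.3 FPKM, and its AngII values of 39.9, 14.3 and 35.8 overlapped with them.

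Without the third blank library, no gene was called between AngII and blank by limma on the deposited FPKM, neither among the 16 nor among all genes, and 993 genes had an unadjusted p below 0.05. After median-ratio scaling, 8 of the 16 were called higher in AngII, and none lower, beside 5.16% and 3.23% of all tested genes, with a median log2 difference of 1.65 beside 0.08 for all genes. These were ATP5MC3 (3.46), ATP5MG (3.36), ATP5MC2 (3.15), ATP5MC1 (2.85), ATP5PO (2.72), ATP5F1A (2.03), ATP5PB (1.99) and ATP5MJ (1.60), where the values are log2 differences of scaled FPKM. The catalytic α subunit ATP5F1A and the stalk subunit ATP5PB were thus called after scaling but not on the deposited FPKM (limma adjusted p = 0.0209 and 0.00521). With scaling and without the third blank library, 4 of the 16 were called higher (ATP5MC2, ATP5MC3, ATP5PB and ATP5PO), beside 3.25% of all tested genes. With scaling, 9 of the 16 did not overlap between AngII and blank, beside 16.9% of all tested genes.

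Between the treated and the AngII group, all 16 ATP5 genes were called higher on the deposited FPKM, as were 99.5% of all tested genes, while 0.101% were called lower. The filter bears on that share, since most genes passed it through the treated libraries, and without a filter 61.5% of 18281 genes were called higher (61.6% for treated against blank). After median-ratio scaling none of the 16 was called by limma in either direction, while 2.34% of all tested genes were called higher and 1.82% lower (255 higher and 199 lower, against 10858 and 11 on the deposited FPKM). The median log2 difference of the 16 was then −0.39, beside 0.09 for all genes. ATP5MC2 had the lowest value of the 16, −1.40 (limma adjusted p = 0.056), and ATP5F1A the highest, 0.87 (limma adjusted p = 0.256). ATP5F1B, which was near 0 FPKM in the AngII libraries, had 0.68 (limma adjusted p = 0.00674) and missed only the threshold on the difference. Between the treated and the blank group, 16 of 16 were called higher on the deposited FPKM, beside 99.3% of all tested genes, and 9 of 16 after scaling, beside 6.15%. With scaling and without the third blank library, 5 of the 16 were called higher against blank, beside 5.94%. None was called lower, beside 0.11% of all tested genes before and 3.41% after scaling. The scaled libraries did not overlap for 1 of the 16 between treated and AngII and for 12 between treated and blank, with the treated group higher, beside 29.7% and 48.3% of all tested genes.

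**Figure D3:**
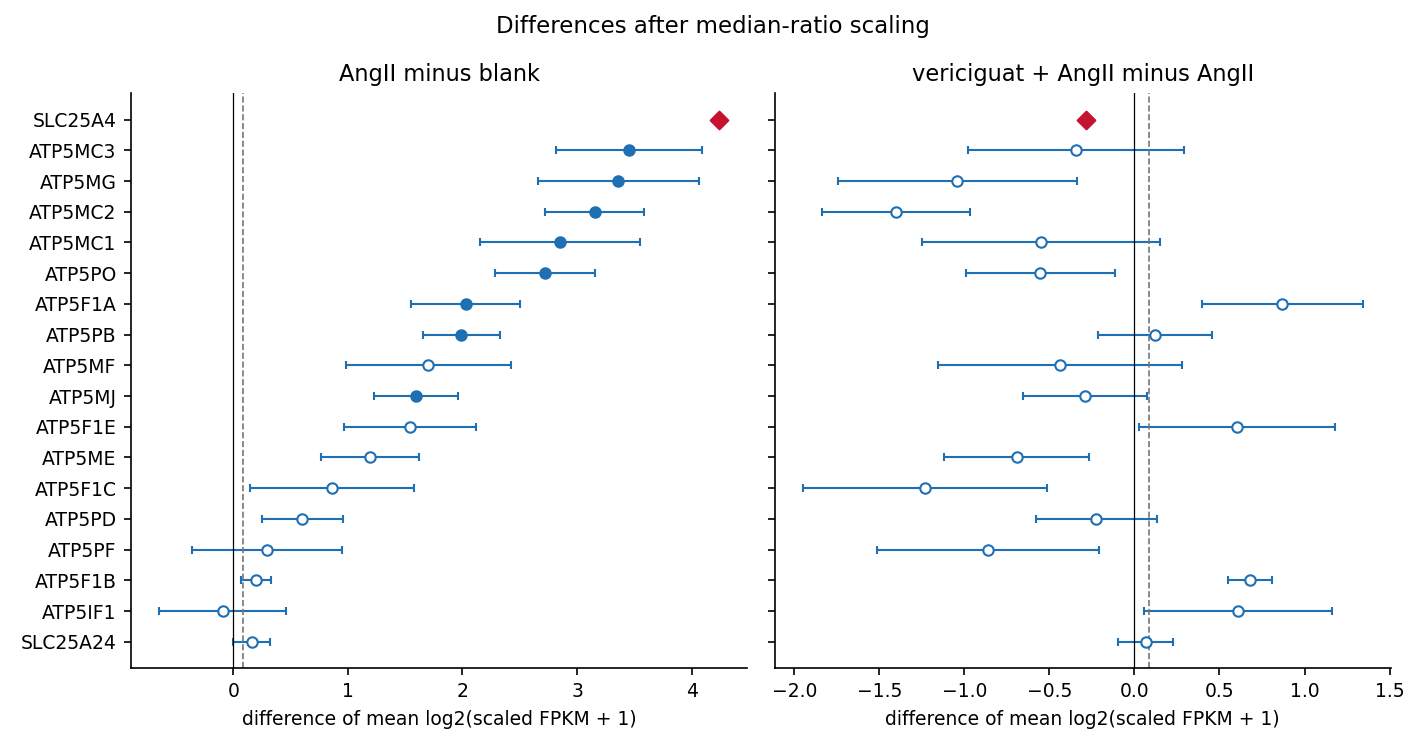
Differences of the group means on the log2(median-ratio scaled FPKM + 1) scale for SLC25A4, the 16 ATP5 genes and SLC25A24, in the comparisons of AngII with blank (left) and of vericiguat + AngII with AngII (right); bars are standard errors from limma, filled circles are called genes, and the dashed line is the median of all tested genes. SLC25A4, drawn as a diamond without an error bar because it was not tested, lies at 4.24 and −0.28, and the 16 ATP5 genes have medians of 1.65 and −0.39.

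Set beside the ATP5 genes within each library, SLC25A4 changed place. Among itself and the 16, ordered by FPKM, which is per length of transcript, it stood at 13, 10 and 12 of 17 in blank libraries, at 4, 2 and 3 in AngII libraries and at 3, 4 and 4 in treated libraries. Its FPKM was 0.205, 0.814 and 0.434 times the median ATP5 FPKM in the blank libraries, 2.52, 3.20 and 2.31 times in the AngII libraries and 3.07, 2.83 and 2.32 times in the treated libraries. As a percentage of the summed ATP5 FPKM, it was 0.443, 2.11 and 0.906 in blank libraries, 10.4, 11.9 and 10.7 in AngII libraries and 14.3, 10.8 and 8.96 in treated libraries. These ratios do not depend on how the libraries were scaled. The AngII and treated libraries overlapped in the percentage and in the ratio to the median, and all lay above the blank libraries.

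**Figure D4:**
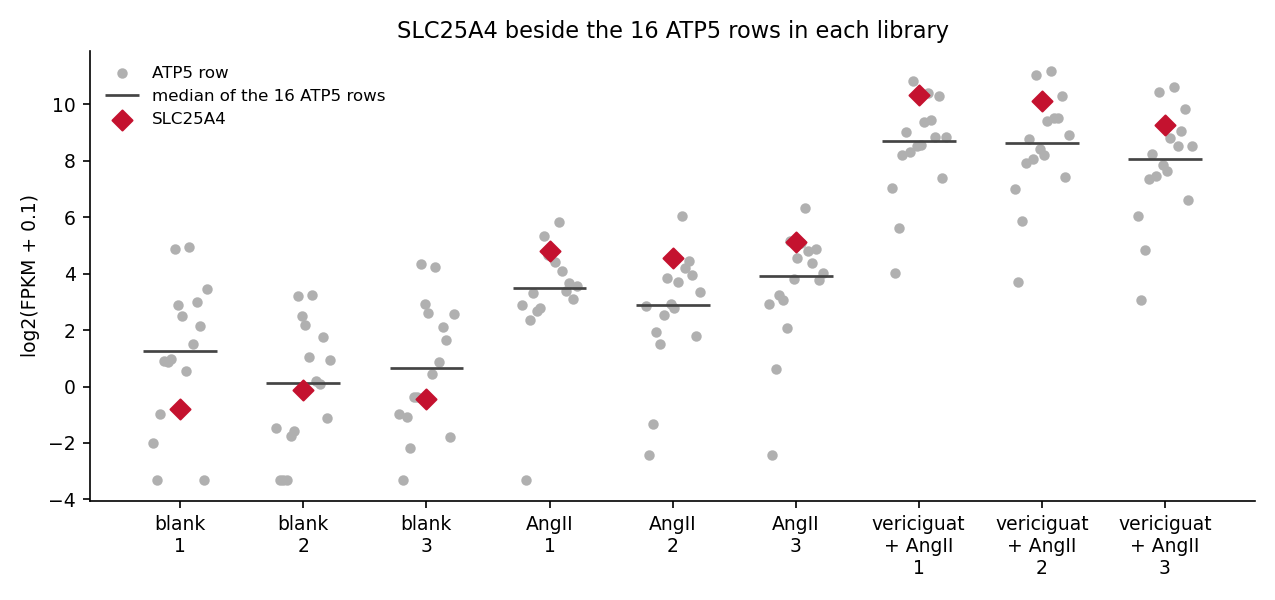
Level as log2(FPKM + 0.1) of SLC25A4 (red diamond) and of the 16 ATP5 genes (grey points, with a line at their median) in each of the 9 libraries. SLC25A4 lies below the ATP5 median in the 3 blank libraries and above it in the 6 libraries that received AngII.

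Genes that handle ATP and ADP at the mitochondrion were examined in a list of 19, of which 8 were listed by symbol and 7 passed the filter. The 7 include ATP5IF1, which was also counted among the ATP5 genes. VDAC1, the main channel of the outer membrane, had FPKM of 0.604, 0.157 and 0.384 in blank libraries, 2.65, 4.11 and 3.99 in AngII libraries and 160, 145 and 98.0 in treated libraries. It was the only one of the 7 called between AngII and blank on the deposited FPKM, beside 1.44% of all tested genes called higher, with a log2 difference of 1.73 (SE 0.326, limma adjusted p = 0.0308). That call, like those of all other genes on the deposited FPKM, was lost without the third blank library. It was also lost when limma was fitted to the blank and AngII libraries alone. After scaling it was called again with 2.09 (limma adjusted p = 0.0015), and so was CKMT2, the mitochondrial creatine kinase of striated muscle, with 2.42 (limma adjusted p = 0.00109), beside 5.16% of all tested genes called higher and 3.23% lower. CKMT2 was listed at 0 in all blank libraries and had FPKM of 1.25, 1.46 and 1.96 in AngII libraries and 240, 162 and 114 in treated libraries. CKB, the cytosolic brain-type creatine kinase, was called lower in AngII after scaling, with −1.005 (limma adjusted p = 0.0496). Its deposited FPKM of 2.74, 0.187 and 1.505 in blank libraries and 0.416, 0.834 and 0.607 in AngII libraries overlapped. Between treated and AngII, CKMT2 alone of the 7 was called after scaling, with 1.20 (limma adjusted p = 0.0161). VDAC1 and CKMT2 were also called between AngII and blank with scaling and without the third blank library, and CKB was not.

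Of the 5 respiratory chain subunits listed and tested, none was called between AngII and blank on the deposited FPKM, and 4 were called higher after scaling, beside 5.16% of all tested genes. These were UQCRQ of complex III (2.27), SDHB and SDHA of complex II (2.17 and 1.70) and COX4I1 of complex IV (1.98), as log2 differences, and the same 4 were called with scaling and without the third blank library, beside 3.25% of all tested genes. None of the 5 was called between treated and AngII after scaling. The citrate cycle was represented by 4 of 21 genes (ACO1, CS, IDH1 and IDH3G), which limma did not call after scaling in any of the comparisons. ACO1, CS and IDH1 were at most 0.391, 0.043 and 0.162 FPKM in the 6 blank and AngII libraries and passed the filter through the treated libraries, so their lack of calls says little about the citrate cycle.

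The labelled cell type was checked against marker genes, most of which were not matched by symbol. Of 14 fibroblast markers 4 were listed (LUM, DCN, FN1 and COL1A2). Their summed scaled FPKM was 21.5 to 53.4 in blank libraries, 15.8 to 86.7 in AngII libraries and 26.5 to 33.4 in treated libraries, and none was called after scaling. Of 15 cardiomyocyte markers 6 were listed. Their summed scaled FPKM was 16.3 to 85.9 in blank libraries, 152 to 244 in AngII libraries and 274 to 385 in treated libraries, so that the groups did not overlap. In treated libraries the sum rested largely on MYH7, with deposited FPKM of 4346, 3645 and 2766 beside summed FPKM of 3812 to 6077. Between treated and AngII after scaling, MYH6 (−0.07), PLN (0.07) and RYR2 (0.93) were not called, as log2 differences. RYR2 missed only the threshold on the difference (limma adjusted p = 0.004). After scaling, the cardiac myosin heavy chains MYH6 (4.29) and MYH7 (2.38) were called higher in AngII than in blank, as log2 differences, and without the third blank library MYH6 (4.41) was called and MYH7 (2.26) was not. Of the smooth muscle and pericyte markers 3 of 8 were listed, and ACTA2, the smooth muscle actin that myofibroblasts also express, and MYH11, the smooth muscle myosin, were called lower in AngII after scaling, with −2.47 and −2.96. Neither was called with scaling and without the third blank library (limma adjusted p = 0.127 and 0.0868), and ACTA2 FPKM was 7.79, 0.210 and 3.83 in blank libraries and 1.03, 0 and 0.114 in AngII libraries, which overlap. Between AngII and blank, the 2 of 8 endothelial (KDR and VWF) and 2 of 7 red blood cell markers (HBA and HBB2) that were listed were not called after scaling, and CD14, the 1 macrophage marker listed of 7, was called lower in AngII (−1.18 with and −1.42 without the third blank library). CD14 FPKM was 1.14, 0.151 and 0.397 in blank libraries and 0.202, 0.127 and 0 in AngII libraries, which overlap. CD14 was not called on the deposited FPKM and passed the filter through the treated libraries. The summed scaled FPKM of HBA and HBB2 was 859 to 1943 in blank libraries, 654 to 929 in AngII libraries and 530 to 1088 in treated libraries. In each group it lay above the sum of the listed fibroblast markers. The source of these haemoglobin transcripts was not tested. Between treated and AngII after scaling, ACTA2 (2.80), MYH7 (1.93), the sarcomere protein titin, TTN (1.68), and the endothelial receptor KDR (1.67) and clotting protein VWF (1.48) were called higher, as log2 differences (limma adjusted p = 0.0208, 0.0321, 0.00283, 0.000503 and 0.000987), and with the third blank library left out as well MYH7 was not called (limma adjusted p = 0.0558) and the other 4 were. KDR and VWF were also called higher in treated than in blank, by 2.04 and 1.02, and so were 4 of the cardiomyocyte markers. TTN, KDR and VWF were below 1 FPKM in all 6 blank and AngII libraries and passed the filter through the treated libraries. NPPA, the natriuretic peptide of atrial myocytes, was listed at 0 in all blank libraries and at 0 to 0.449 FPKM elsewhere. The skeletal muscle markers MYOG and MYH4 were listed at 0 in all libraries. Between blank and AngII, 2 of the 5 cardiomyocyte markers tested were thus called in the direction of SLC25A4 after scaling and none on the deposited FPKM, while PLN (1.15), TTN (0.58) and RYR2 (0.42) did not pass. The part of these cells in the level of SLC25A4 was not tested.

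The genes whose pattern was most like that of SLC25A4 were found by Pearson correlation over the 9 libraries, on log2 of the median-ratio scaled FPKM plus 0.1. This likeness is a description of 9 points that share their libraries, groups and scaling. Of 1083 genes with a symbol, ATP5PO came first (r = 0.975), followed by SGCB, a sarcoglycan of the muscle membrane (0.971), VDAC1 (0.970), ATP5MC1 (0.963), COX4I1 (0.960), HMGB1, a chromatin protein (0.954), ATP5MG (0.953), RETREG1, a receptor for turnover of the endoplasmic reticulum (0.945), ATP5MC2 (0.943) and SLMAP, a membrane protein of muscle (0.938). A further 49 entries with LOC numbers had r above that of the tenth. Some of the 10 were near 0 in blank libraries, such as SGCB (0.008, 0.007 and 0 FPKM) and SLMAP (0.142, 0.041 and 0.065 FPKM). Their r thus rests partly on values near the floor. Of the 16 ATP5 genes 5 had r above 0.9, as did 251 of all 10907 other genes (2.3%), and the median r was 0.796 for the 16 and 0.282 for all genes. On the deposited FPKM the median r for all genes was 0.867, so this background depends on the scaling. SLC25A24 had r = 0.609.

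**Figure D5:**
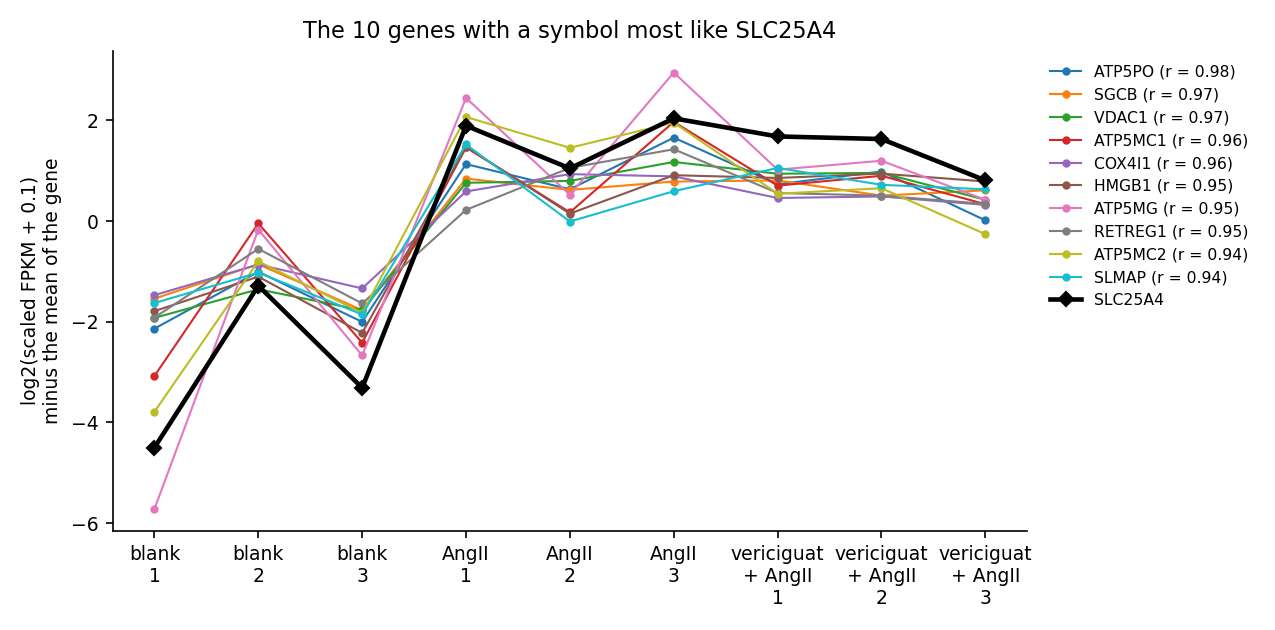
Level as log2(median-ratio scaled FPKM + 0.1), less the mean of each gene over the 9 libraries, for SLC25A4 (black) and the 10 genes with a symbol most like it (colours, with their r), with the libraries in order of group along the horizontal axis. For SLC25A4, the AngII and treated libraries overlap and lie above the blank libraries.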

How the data were processed

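The authors removed low-quality reads, compared the rest with a reference and deposited gene expression as FPKM. The submitters' processing notes name FastQC 0.11.9, Trimmomatic 0.39, HISAT2 2.2.1, featureCounts 2.0.1 and the build OryCun2.0. No counts were used, so absolute depth is unknown, and relative depth was estimated from the smallest steps of low FPKM values. Every column was assigned to a sample and group from its title.

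Tests used limma 3.58.1 in R 4.3.3 (lmFit, eBayes with trend) on log2(FPKM + 1), fitted once to the 9 libraries without covariates, for the 10908 of 22512 genes that reached an FPKM of 1 in 3 or more libraries. Fold changes on this scale understate those of low genes. The fit was tested on simulated data with 200 changed genes. Apart from the changes, each simulated gene had the same level in all groups and the spread of the treated libraries. The simulation thus cannot show whether the fit suits groups as unlike as these. SLC25A4, the ATP5 genes and the other lists were chosen with earlier results of these data known. Genes of the lists that passed the filter could be named, and the 10 genes with a symbol most like SLC25A4 were named. Alternatives covered the pseudocount, filter, scaling, model and each library left out. Promoter sequences came from RefSeq (GRCr8). Figures were drawn with matplotlib 3.10.9.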

Additional observations from a re-analysis of the deposited data

How the results depend on the processing

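With the main setting, 169 genes were called between AngII and blank, 10869 between vericiguat + AngII and AngII and 10845 between vericiguat + AngII and blank. The first count was 969 and 1190 with pseudocounts of 0.1 and 0.01, 79 without a filter, 342 with a mean FPKM of at least 5, 20 with TPM, 698 with the same sum without the KEF51 entries, 915 after median-ratio scaling, 802 after quantile normalization and 0 with only the compared groups in the limma fit (1663 with an unadjusted p below 0.05). The second was 3113 with a mean FPKM of at least 5, where 3124 genes were tested, 454 with median ratios and 378 with quantiles, and the third was 3110, 1043 and 944. The ATP5 count between AngII and blank (main value 5) was 8 and 9 with the pseudocounts, 9 with a mean FPKM of at least 5, 1 with TPM, 8 after median-ratio scaling, 8 without the trend and 0 with only the compared groups. For vericiguat + AngII against AngII (main value 16) it was 10 without the KEF51 entries, 0 with median ratios and 1 with quantiles, and against blank 9 with median ratios and 8 with quantiles. SLC25A24 was called in both comparisons with the treated group in the main setting (1 of 1) and in neither (0) after median-ratio scaling or quantile normalization, and it gave no value at a mean FPKM of at least 5. After median-ratio scaling of the 9 libraries its levels were too low to reach the threshold. Its counts of 0 on that scale, here and with the replicate block below, were thus fixed in advance. The difference of SLC25A4 between AngII and blank (main value 4.16) was 5.28 and 5.47 with the pseudocounts, 3.61 with TPM, 4.84 without the KEF51 entries 3.56 after quantile normalization and, as a log2 ratio of the group means, 5.48. Between treated and AngII (5.03) it was 6.03 with TPM, 2.03 without the KEF51 entries, −0.28 after median-ratio scaling, the only reversal, and 0.29 after quantile normalization. Between treated and blank (9.19) it was 10.4 and 10.6 with the pseudocounts, 9.64 with TPM, 6.87 without the KEF51 entries, 3.96 with median ratios, 3.85 after quantile normalization and, as a log2 ratio of the group means, 10.61. The causes were not tested.

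With each library left out in turn, the counts over all genes ranged from 0 to 309, 10852 to 10870 and 10807 to 10870, and those of the 16 ATP5 genes from 0 to 6, 16 to 16 and 16 to 16. For AngII against blank the lowest values came without the third blank library (0 genes), without the first, the second or the third treated library (2, 2 and 18) and without the third AngII library (29), and the highest without the second blank library (309). The ATP5 count was 0 without the third blank, the first treated or second treated library and 1 without the third AngII or the third treated library. SLC25A4 ranged from 4.02 to 4.29, 4.82 to 5.35 and 8.98 to 9.51, and SLC25A24 kept 0, 1 and 1. With median-ratio scaling and without the third blank library, an alternative chosen after seeing the data, the counts were 599, 459 and 970 over all genes, 4, 0 and 5 over the ATP5 genes and 0 for SLC25A24.

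No pairing by the replicate numbers shared between groups was seen. The correlations of same-numbered deviations lay between −0.06 and 0.06, and not every library correlated best with its own number. Most genes were low in the blank and AngII libraries, so these correlations cannot decide whether same-numbered libraries shared a culture or animal. With the replicate number as a block, 7 genes and 0 ATP5 genes were called between AngII and blank. With the block and median-ratio scaling together, chosen after seeing the data, the counts were 833, 416 and 1025 over all genes, 8, 0 and 7 over the ATP5 genes and 0 for SLC25A24. Few fragments in the blank libraries limit the SLC25A4 ratios to blank.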
